A study of Arabidopsis thaliana with 2 samples.

Results

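Peaks of DNA binding were examined at the 6 Arabidopsis thaliana genes of the AGL17 and AGL15 clades of MADS-box genes. These are AGL16 (AT3G57230), AGL17 (AT2G22630), AGL21 (AT4G37940) and AGL44 (AT2G14210, also named ANR1) in the AGL17 clade, and AGL15 (AT5G13790) and AGL18 (AT3G57390) in the AGL15 clade. They were matched by symbol in a TAIR10.1 gene table that holds 27444 protein-coding genes on the 5 nuclear chromosomes. The assay was sequential DNA affinity purification sequencing, which captures pieces of naked plant DNA on a protein complex outside the cell and reads them by sequencing. Untreated seedlings 2 weeks old gave the DNA. The complexes, SEP3Δtet3M-AG and SEP3Δtet-AGΔtet, pair SEPALLATA3 (SEP3) with AGAMOUS (AG), both of them MADS-domain transcription factors of the flower. The series' title describes both complexes as tetramerization mutants. Each complex is represented by 1 deposited peak list, of 1681 peaks for SEP3Δtet3M-AG and 2277 peaks for SEP3Δtet-AGΔtet. Both samples carry the same genotype label, SEP3Δtet3M-AG, so the complexes were told apart by the sample titles. The unaltered SEP3-AG complex was not analysed here.

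MADS-domain proteins bind DNA as dimers at CArG boxes, A/T-rich elements flanked by C and G, and floral MADS proteins can join into tetramers that hold a pair of such elements. Many MADS-box genes are themselves bound by MADS-domain proteins. The AGL17 clade includes genes with known roles in roots and in flowering. AGL44 links nitrate to lateral root growth, AGL21 acts in lateral root development, AGL17 promotes flowering, and AGL16 represses flowering and acts in stomatal development. AGL15 and AGL18 together repress flowering, and AGL15 also promotes embryonic identity in tissue culture.

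In the SEP3Δtet3M-AG list, 4 of the 6 genes had a peak, against 12% of all protein-coding genes, and in the SEP3Δtet-AGΔtet list 5 of the 6 genes had one, against 15.8%. A gene was counted when it held the midpoint of a peak or had one no farther than 3000 bp from either end. AGL16, AGL17, AGL21 and AGL18 had a peak in both lists, a pattern found in 8.65% of all protein-coding genes. AGL15 had a peak in the SEP3Δtet-AGΔtet list alone, as did 7.15% of all genes. None of the 6 had one in the SEP3Δtet3M-AG list alone, a pattern of 3.39% of all genes, and AGL44 had none in either list, like 80.8% of all genes. The 6 genes are 2097 to 5306 bp long. Among the 12184 protein-coding genes in that range of length, 13.8% had a SEP3Δtet3M-AG peak, 18% a SEP3Δtet-AGΔtet peak and 10.1% a peak of each list. Because the 6 genes were grouped with results of these lists known and each complex has 1 list, these counts describe the lists and no test was made.

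**Figure D1:**
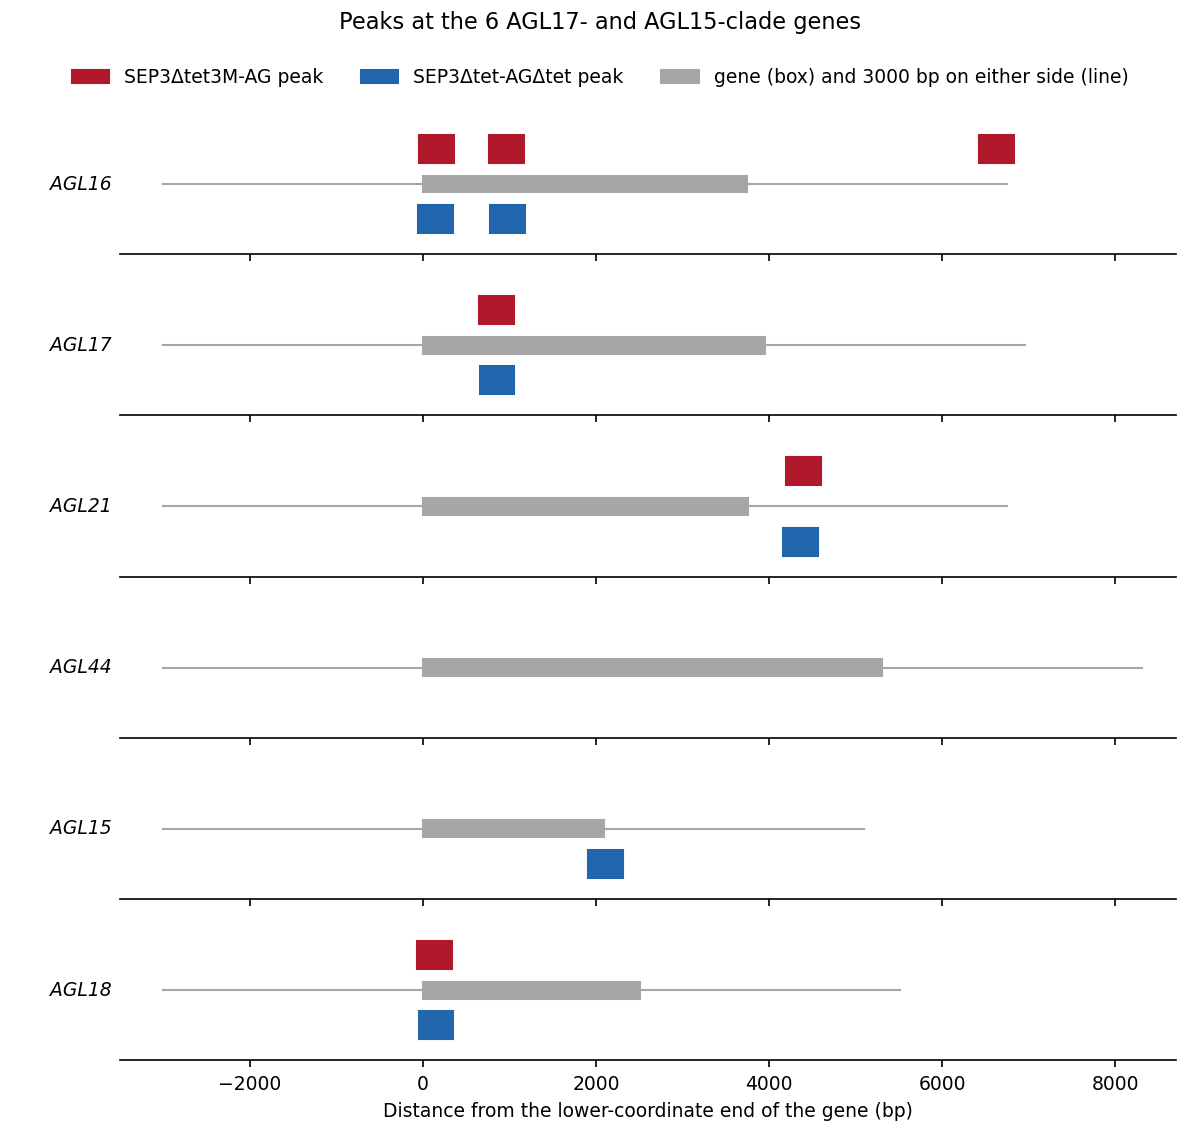
Positions of peaks at the 6 genes, in bp from the lower-coordinate end of each gene. Grey boxes are the genes and grey lines the 3000 bp on either side, SEP3Δtet3M-AG peaks are drawn above in red and SEP3Δtet-AGΔtet peaks below in blue, and each peak is 400 bp wide. The peaks of the lists lie almost on top of each other at AGL16, AGL17, AGL21 and AGL18, AGL15 has a SEP3Δtet-AGΔtet peak alone, and AGL44 has none.

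Distances to genes assume that the peaks were called on TAIR10 coordinates, since no source used here names the build. The gene table carries no strand and no exons, so positions are given from the end of the gene with the lower or the higher chromosome coordinate, and no peak was assigned to a promoter, an exon or an untranslated region. Every peak is 400 bp wide and has no score, so its midpoint stands for its summit and its strength is unknown.

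AGL16, a repressor of flowering, had the most peaks of the 6 genes, 3 in the SEP3Δtet3M-AG list and 2 in the SEP3Δtet-AGΔtet list. Near its lower-coordinate end lay a peak at chr3:21177235-21177634 with SEP3Δtet3M-AG and at chr3:21177230-21177629 with SEP3Δtet-AGΔtet. These peaks reached 47 bp past that end of the gene with SEP3Δtet3M-AG and 52 bp with SEP3Δtet-AGΔtet, and their midpoints lay 152 bp inside with SEP3Δtet3M-AG and 147 bp inside with SEP3Δtet-AGΔtet. A further peak lay wholly inside AGL16 in each list, at chr3:21178044-21178443 with SEP3Δtet3M-AG and at chr3:21178058-21178457 with SEP3Δtet-AGΔtet. Its midpoint was 25.7% of the gene's length from the lower-coordinate end in the SEP3Δtet3M-AG list and 26.0% in the SEP3Δtet-AGΔtet list. AGL16 itself was the nearest gene to these 4 peaks, and AT3G57220 was the only other gene within 3000 bp of them. From the midpoint of the peak near the lower-coordinate end, AT3G57220 was only 240 bp away with SEP3Δtet3M-AG and 235 bp with SEP3Δtet-AGΔtet.

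The AGL16 peaks inside the gene were 809 bp apart with SEP3Δtet3M-AG and 828 bp apart with SEP3Δtet-AGΔtet, from midpoint to midpoint. These spacings themselves were taken as limits after they were seen, as a description, and AGL16's own pair is among those counted. In the SEP3Δtet3M-AG list 24 of 1676 pairs of neighbouring peaks (1.43%) were at most 809 bp apart, and in the SEP3Δtet-AGΔtet list 40 of 2272 (1.76%) were at most 828 bp apart. The median spacing was 46431 bp in the SEP3Δtet3M-AG list and 32275 bp in the SEP3Δtet-AGΔtet list. At least 2 midpoints inside the same gene were found at 12 protein-coding genes with SEP3Δtet3M-AG (0.0437%) and at 24 with SEP3Δtet-AGΔtet (0.0875%). This held in both lists for AGL16 and for 1 other gene, AT1G55270, of all 27444 (0.00729% for the 2 genes). The rule of at least 2 midpoints was not planned and follows AGL16's own counts, so these shares are a description only. They were not matched for gene length. AGL16, at 3745 bp, is longer than the upper quartile of all protein-coding genes, 3030 bp. With the flanks of 3000 bp counted too, 0.394% of all genes had at least 2 peaks in each list, and of the 6 genes again AGL16 alone did. Of the 33 other MADS-box genes of the same structural type (MIKCc) 3 did as well, namely AG, SOC1 and AGL19. In AT1G55270, which was singled out after its values were seen, the midpoints were 1273 bp apart with SEP3Δtet3M-AG and 1285 bp apart with SEP3Δtet-AGΔtet.

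The remaining AGL16 peak was found with SEP3Δtet3M-AG alone, at chr3:21183707-21184106. It lay 2880 bp past the higher-coordinate end of AGL16, just inside the limit of 3000 bp. The nearest gene was BG3, which encodes a beta-glucanase, at 762 bp, so this peak is attached to AGL16 by the distance limit and not as its nearest gene.

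AGL17, a promoter of flowering, had a single peak in each list, inside the gene. It lay at chr2:9618857-9619256 with SEP3Δtet3M-AG and at chr2:9618863-9619262 with SEP3Δtet-AGΔtet. The midpoint was 849 bp from the lower-coordinate end with SEP3Δtet3M-AG and 855 bp from it with SEP3Δtet-AGΔtet. This is 21.5% of the gene's length with SEP3Δtet3M-AG and 21.6% with SEP3Δtet-AGΔtet. No other gene lay within 3000 bp of the AGL17 peaks. The next peak lay 38050 bp away with SEP3Δtet3M-AG, at chr2:9579958-9580357, and 38036 bp away with SEP3Δtet-AGΔtet, at chr2:9579972-9580371. In both lists it was inside another MADS-box gene, the flowering repressor SVP.

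AGL21, which acts in lateral root development, had its peak outside the gene in both lists. The peak lay at chr4:17839414-17839813 with SEP3Δtet3M-AG and at chr4:17839376-17839775 with SEP3Δtet-AGΔtet. The midpoints were 644 bp past the higher-coordinate end of the gene with SEP3Δtet3M-AG and 606 bp past it with SEP3Δtet-AGΔtet. AGL21 was the nearest gene and no other gene lay within 3000 bp of the midpoint. SHM1, a photorespiratory enzyme gene on the other side of AGL21, came next at 4596 bp with SEP3Δtet3M-AG and 4558 bp with SEP3Δtet-AGΔtet. The 38 bp between the midpoints was the largest distance among the shared peaks at the 6 genes.

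AGL44, the nitrate-linked root gene, had no peak within 3000 bp in either list and is the longest of the 6, at 5306 bp. The nearest peak lay 16582 bp away with SEP3Δtet3M-AG, at chr2:6001777-6002176, and 16579 bp away with SEP3Δtet-AGΔtet, at chr2:6001780-6002179. That peak was shared, with midpoints 3 bp apart, and its nearest gene was the pseudogene AT2G14190. Of all protein-coding genes, 42.1% had a nearer SEP3Δtet3M-AG peak than AGL44 and 51.8% a nearer SEP3Δtet-AGΔtet peak, so its distances lie near the middle of the range over all genes. AGL44 had 12 other protein-coding genes within 50000 bp, against a median of 28 for all protein-coding genes and 20 to 33 for the other 5 members. The part of gene density in the absence of a peak was not tested.

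AGL15 was the only gene of the 6 at which the lists differed in having a peak. A SEP3Δtet-AGΔtet peak at chr5:4450771-4451170 lay across the higher-coordinate end of the gene, with 188 bp inside and 212 bp outside and its midpoint 12 bp past the end. The SEP3Δtet3M-AG list had no peak there, and its nearest peak to AGL15 was 6379 bp away, at chr5:4457138-4457537. That more distant peak was shared with SEP3Δtet-AGΔtet, with midpoints 12 bp apart, and its nearest gene was AT5G13810. AGL15 was the nearest gene to the peak found with SEP3Δtet-AGΔtet alone. PPH, a chlorophyll breakdown gene, lay 763 bp from its midpoint. Without scores or reads, a site just under the caller's threshold with SEP3Δtet3M-AG cannot be told apart from a site without binding.

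AGL18, the partner of AGL15 in repressing flowering, had a peak in both lists. It lay at chr3:21233409-21233808 with SEP3Δtet3M-AG and at chr3:21233422-21233821 with SEP3Δtet-AGΔtet. The midpoint was 136 bp inside the lower-coordinate end of the gene with SEP3Δtet3M-AG and 149 bp inside it with SEP3Δtet-AGΔtet. Past that end reached 63 bp of the SEP3Δtet3M-AG peak and 50 bp of the SEP3Δtet-AGΔtet peak. AGL16 and AGL18 are neighbours at a larger scale, 52445 bp apart on chromosome 3 with 15 protein-coding genes between them. Between these genes lay 1 SEP3Δtet3M-AG peak, the one near BG3, and 0 SEP3Δtet-AGΔtet peaks.

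**Figure D2:**
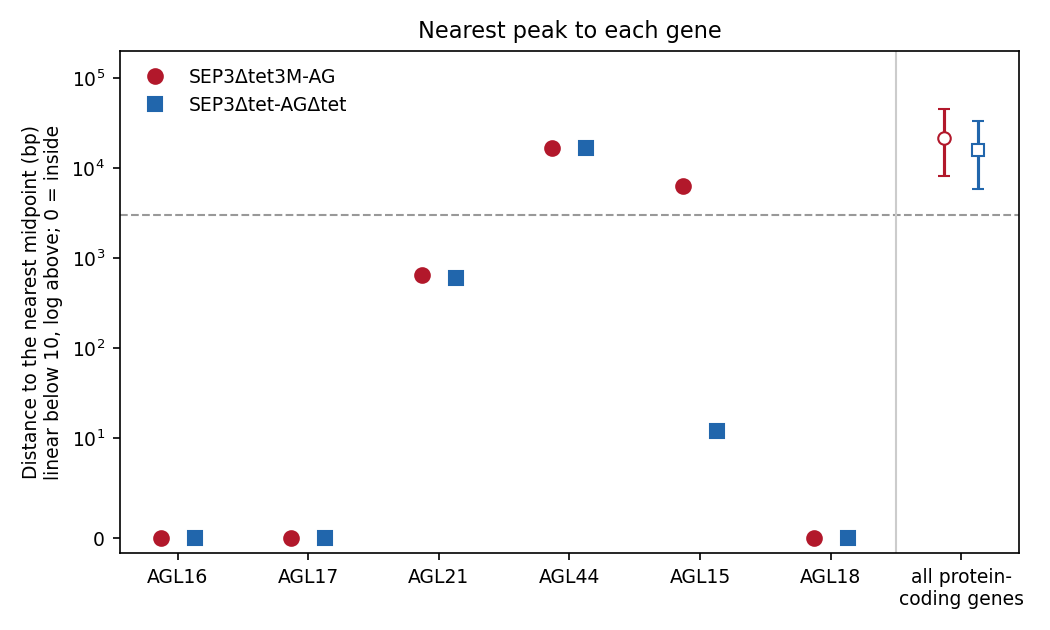
Distance in bp from each of the 6 genes to the nearest peak midpoint, on an axis that is linear below 10 bp and logarithmic above, with 0 for a midpoint inside the gene. Filled red circles are SEP3Δtet3M-AG and filled blue squares SEP3Δtet-AGΔtet, open symbols give the median of all protein-coding genes with bars to the lower and upper quartiles, and the dashed line marks 3000 bp. AGL16, AGL17 and AGL18 sit at 0 with both complexes, AGL15 at 6379 bp with SEP3Δtet3M-AG and 12 bp with SEP3Δtet-AGΔtet, and AGL44 near the medians.

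Across all protein-coding genes the median distance to the nearest peak was 21370 bp with SEP3Δtet3M-AG (quartiles 8181 and 44685 bp) and 15688.5 bp with SEP3Δtet-AGΔtet (quartiles 5814 and 33167 bp). With SEP3Δtet3M-AG, 5 of the 6 genes lay below the lower quartile, AGL15 among them. With SEP3Δtet-AGΔtet, the same 5 genes did. AGL44 was the exception in both lists. Both lower quartiles exceed 3000 bp, so each gene already counted with a peak lies below them by that rule. Only AGL15 with SEP3Δtet3M-AG adds to the earlier counts. A midpoint lay inside AGL16, AGL17 and AGL18 with each complex, which is 3 of the 6 genes. Of all genes, 3.17% held one with SEP3Δtet3M-AG, 3.8% with SEP3Δtet-AGΔtet and 2.14% with both. These shares were not matched for gene length, and all 6 genes are longer than the median protein-coding gene, 2078 bp. Of the 33 other MIKCc genes, AG, AP3, AGL14, AGL19, SVP, AGL24 and MAF2 also held a midpoint in both lists, and the rest did not. Around the 6 genes, peaks within 50000 bp numbered 1 to 3 with SEP3Δtet3M-AG and 1 to 4 with SEP3Δtet-AGΔtet. The median over all protein-coding genes was 1 peak with SEP3Δtet3M-AG and 2 peaks with SEP3Δtet-AGΔtet.

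Some peaks at the 6 genes crossed a gene end, but 6 peaks in each list are too few to compare their shares with those of other peaks. Of the 6 SEP3Δtet3M-AG peaks, 2 crossed an end of a protein-coding gene, at AGL16 and AGL18, against 24.3% of the other peaks of that list. Of the 6 SEP3Δtet-AGΔtet peaks, 3 did, at AGL16, AGL15 and AGL18, against 24.3% of the other peaks there too. The peaks at the 6 genes lie within 3000 bp of a gene by the counting rule, and the other peaks have no such limit. Of those other peaks, 17.7% with SEP3Δtet3M-AG and 18.3% with SEP3Δtet-AGΔtet had midpoints over 1000 bp from any protein-coding gene. For the 4 midpoints inside the genes in each list, the distance to the nearer end of the gene was 136 to 961 bp with SEP3Δtet3M-AG and 147 to 975 bp with SEP3Δtet-AGΔtet. The other midpoints inside genes had medians of 589 bp (quartiles 263 and 1015 bp) with SEP3Δtet3M-AG and 603 bp (quartiles 247.5 and 1041 bp) with SEP3Δtet-AGΔtet. The AGL16 and AGL18 peaks at gene ends thus lay nearer to an end than the lower quartile, and the AGL17 peak and the further AGL16 peak lay between the median and the upper quartile.

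Most peaks at the 6 genes were shared, which means that a peak of the other complex overlapped them by 1 bp or more. Of the 6 SEP3Δtet3M-AG peaks 5 were shared (83.3%, exact 95% Clopper-Pearson interval 35.9 to 99.6), against 67.6% of the other 1675 peaks of that list (65.3 to 69.8). Of the 6 SEP3Δtet-AGΔtet peaks 5 were shared (83.3%, 35.9 to 99.6), against 49.6% of the other 2271 (47.5 to 51.7). The intervals cover the counting of peaks only, and 6 peaks are too few to compare these shares. The unshared peaks are the SEP3Δtet3M-AG peak nearer to BG3 than to AGL16 and the SEP3Δtet-AGΔtet peak at AGL15.

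**Figure D3:**
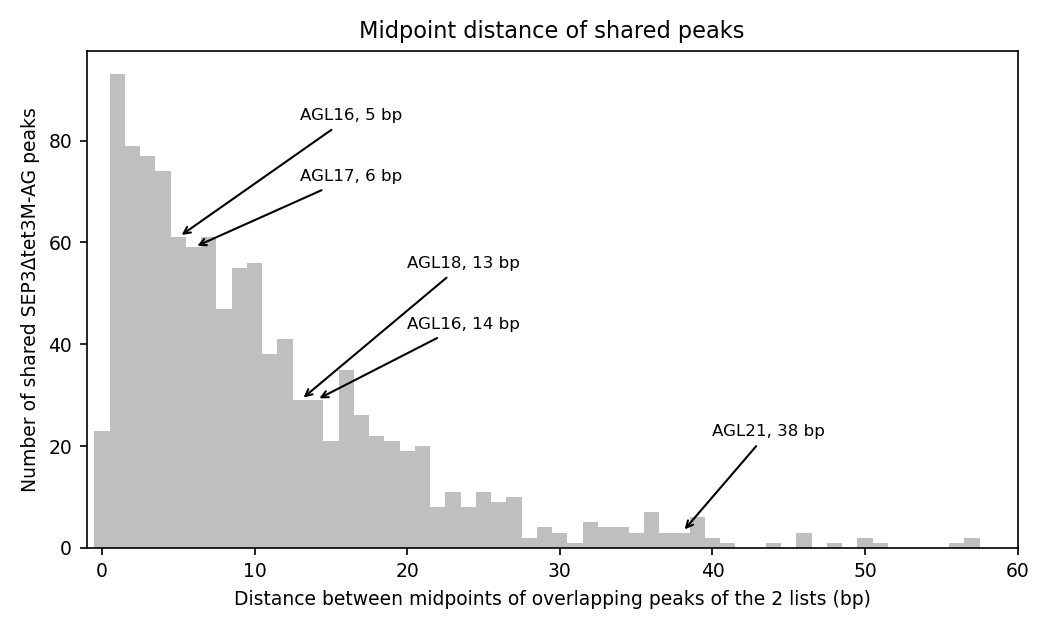
Number of shared SEP3Δtet3M-AG peaks by the distance in bp between their midpoint and that of the overlapping SEP3Δtet-AGΔtet peak, in bins of 1 bp, with arrows at the 5 shared peaks of AGL16, AGL17, AGL21 and AGL18. Of 1137 shared peaks, 35 lie beyond the right end of the axis. The AGL21 pair, at 38 bp, sits in the tail of the distribution and the other pairs, at 5 to 14 bp, in its bulk.

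The shared peaks at the 6 genes were nearly concentric. The midpoint with SEP3Δtet3M-AG minus that with SEP3Δtet-AGΔtet was 5 bp at the AGL16 peak near the gene's end, -14 bp at the further AGL16 peak, -6 bp at AGL17, 38 bp at AGL21 and -13 bp at AGL18. The signs were mixed, and 5 pairs are too few to tell whether the complexes' peaks were displaced in a common direction along the chromosome. The median size of the difference was 13 bp (n = 5), against 8 bp (quartiles 4 and 16 bp) for the other 1132 shared peaks. AGL21 stood farthest out, since 95.1% of those other peaks had a difference of at most 38 bp. The AGL21 peaks still had 362 of 400 bp in common, and the other 4 pairs had 386 to 395 bp.

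The other MIKCc genes were set beside the 6 genes. Of these 33 genes, 14 had a SEP3Δtet3M-AG peak within 3000 bp (42.4%, exact interval 25.5 to 60.8), 14 had a SEP3Δtet-AGΔtet peak and 10 had both (30.3%, 15.6 to 48.7). In the AGL17 and AGL15 clades together 4 of 6 had a SEP3Δtet3M-AG peak, 5 a SEP3Δtet-AGΔtet peak and 4 both. By clade, 3 of the 4 AGL17-clade genes had a peak in each list, all 3 in both. In the AGL15 clade 1 of 2 had a SEP3Δtet3M-AG peak and 2 of 2 a SEP3Δtet-AGΔtet peak. The AG clade also had 3 of 4 genes with a peak in both lists, the SVP clade 2 of 2 and the SOC1 clade 3 of 6. In the FLC clade 1 of 6 genes, MAF2, had one, and the AP1 and FUL clade had 2 of 4 in each list but 0 in both. These numbers of genes are too small to set a clade apart from another.

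**Figure D4:**
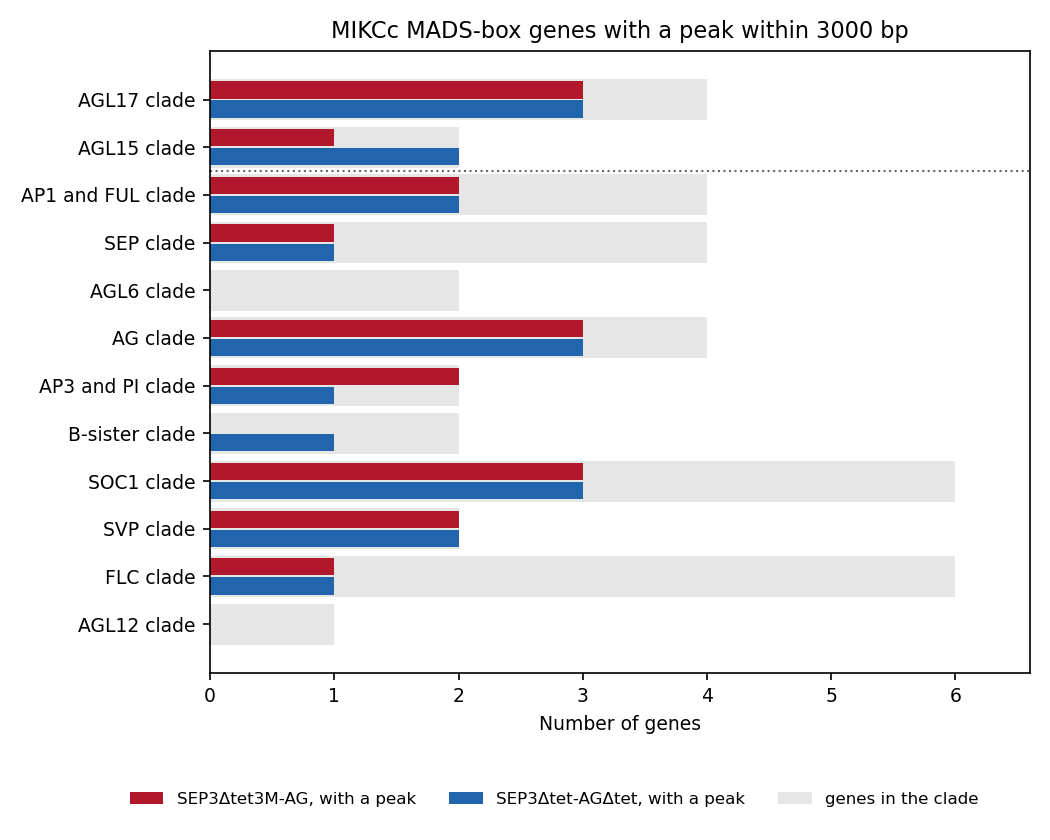
Number of MIKCc MADS-box genes with a peak within 3000 bp in each clade. Pale bars give the genes in the clade, red bars those with a SEP3Δtet3M-AG peak and blue bars those with a SEP3Δtet-AGΔtet peak, with the AGL17 and AGL15 clades above the dotted line. The AGL17 clade has 3 of 4 genes with a peak in each list, the same numbers as the AG clade.

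Peak counts in the 2 lists served as the measure of likeness between genes. The pattern of AGL17, AGL21 and AGL18, with 1 peak in each list, was found at 6 of the 33 other MIKCc genes, which are SHP2, STK, AP3, SVP, AGL24 and MAF2. No other MIKCc gene had the counts of AGL16, 3 with SEP3Δtet3M-AG and 2 with SEP3Δtet-AGΔtet, but these include the peak nearer to BG3. Without that peak AGL16 had 2 in each list, the counts of 3 other MIKCc genes, AG, SOC1 and AGL19. The counts of AGL15, 0 with SEP3Δtet3M-AG and 1 with SEP3Δtet-AGΔtet, were found at FUL, AGL79 and SEP3. AGL44 shared its lack of peaks with 15 others, among them FLC and SHP1. Whatever the number of peaks, 8.65% of all protein-coding genes had a peak in both lists. The SEP3Δtet-AGΔtet list alone had one at 7.15% of all genes, and 80.8% had none in either list.

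Genes of embryo identity and of gibberellin metabolism, a field in which AGL15 is known to act, were counted from a list of 13. With SEP3Δtet3M-AG 3 of them had a peak (23.1%, exact interval 5.04 to 53.8, against 12% of all genes), and with SEP3Δtet-AGΔtet 4 did (30.8%, 9.09 to 61.4, against 15.8%). The intervals hold the shares of all genes. FUS3, a regulator of embryo maturation, carried a peak within its bounds in both lists, at chr3:9855823-9856222 with SEP3Δtet3M-AG, with midpoints 3 bp apart. GA3OX2, a gibberellin synthesis gene, and VAL1 (named HSI2 in the gene table), a repressor of the embryo program, did so too, with midpoints 12 bp apart at GA3OX2 and 26 bp apart at VAL1. BBM, an inducer of somatic embryos, had a peak 584 bp outside the gene with SEP3Δtet-AGΔtet alone, a pattern of 7.15% of all genes. LEC1, LEC2 and ABI3, which act with FUS3, had none in either list, a state of 80.8% of all genes. GA2OX6, also a gene of gibberellin metabolism, had none as well.

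Genes of nitrate uptake, assimilation and signalling, the field of AGL44, were counted from a list of 17. Of these, 3 had a peak with SEP3Δtet3M-AG (17.6%, exact interval 3.80 to 43.4, against 12%) and 3 with SEP3Δtet-AGΔtet (17.6%, against 15.8%), and the interval is too wide to show a difference from all genes or its absence. NLP7, a main regulator of nitrate responses, carried a peak within its bounds in both lists, at chr4:12480382-12480781 with SEP3Δtet3M-AG, with midpoints 2 bp apart. NPF6.3 (NRT1.1), the nitrate transporter and sensor, carried one with SEP3Δtet3M-AG alone, and the transcription factor gene TGA4 carried one with SEP3Δtet-AGΔtet alone. NAC4 (NAC080 in the gene table) was reached in both lists by a peak 1814 bp away whose nearest gene was AT5G07675. The nitrate reductase genes NIA1 and NIA2 and the nitrite reductase gene NIR1 were among the listed genes without a peak in either list. Of all protein-coding genes, 80.8% had none in either list.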

How the data were processed

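The authors' deposited files hold, for each complex, peak starts and ends in 3 columns without a header, per the files themselves, and no other measurement such as a score. Bowtie2, SAMtools and MACS2 were used, per the submitters' processing notes, which carry no versions. The sources used here do not give caller settings, genome build, depth or pooling. The depth behind each list is therefore unknown, and with 1 list per complex no replicate error exists and no test between complexes was made.

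Genes came from the TAIR10.1 RefSeq gene table, in which the 6 members and all 63 other listed genes were found, SEP1 and SEP2 by the synonyms AGL2 and AGL4. Starts were converted to counting from 1. Distances, overlaps and counts were computed with Python 3.11.15, pandas 2.3.3 and numpy 2.4.6, exact intervals with scipy 1.17.1, and the counting functions were tested on simulated peaks. Named genes are the members, the nearest genes of their peaks, listed embryo and nitrate genes with a peak, and MIKCc genes with a member's pair of counts. Other genes named beside them, such as genes without a peak and AT1G55270, were chosen after their values were seen. Members and lists were chosen with earlier results of these data known. Alternatives changed the flank, the sharing rule, the use of midpoints, the assignment to genes and the merging of peaks. Sequence was not analysed here, so the planned search for CArG boxes was not made.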

Additional observations from a re-analysis of the deposited data

How the results depend on the processing

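Of 45 alternatives to the counts and distances given, 44 stayed within 1.5 times the value reported. The exception was the number of members with a SEP3Δtet-AGΔtet peak, which was 3 in place of 5 when the midpoint had to lie inside the gene, since the AGL15 and AGL21 peaks lie outside by that rule. With SEP3Δtet3M-AG that rule gave 3 in place of 4. For counts this small the limit of 1.5 times is wide. It passed a fall from 6 to 4 peaks at members in each list when midpoints had to lie inside genes. It also passed a move from 3 nitrate genes to 2 at a flank of 1000 bp and to 4 at 5000 bp. Some alternatives could not change a value, such as midpoints within 100 bp for pairs at most 38 bp apart. At flanks of 1000 and 5000 bp the members with a peak stayed at 4 with SEP3Δtet3M-AG and 5 with SEP3Δtet-AGΔtet. The background shares over all protein-coding genes were 6.61% and 17.3% with SEP3Δtet3M-AG at these flanks, and 8.69% and 22.6% with SEP3Δtet-AGΔtet. The SEP3Δtet3M-AG peak near BG3 dropped out at 1000 bp and under assignment to the nearest gene. No paired analysis was possible because each complex has 1 peak list and no result comes from a test. Unknown depth and the lack of scores limit every statement that a peak is missing, as at AGL15 with SEP3Δtet3M-AG and at AGL44.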
